A study of Mus musculus with 5 samples.

Results

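The loci described are those of 7 genes of naïve T cell homing, adhesion and tissue egress, *S1pr1*, *Klf2*, *Itgal*, *Itga4*, *Itgae*, *Itgb7* and *Cd44*, in DNase-seq data of naïve CD8+ T cells. Every deposited peak whose summit lay in the body of one of these genes or within 50 kb on either side was taken, on the mm9 assembly and without regard to its height. This gave 131 of the 56641 deposited peaks, 74 of 31116 in the WT list and 57 of 25525 in the dKO list. DNase-seq sequences the short fragments that DNase I cuts out of open chromatin, so a peak marks a chromatin-accessible (ChrAcc) stretch of the genome.

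The cells were splenic GFP+ TCRβ+ CD8+ T cells of the naïve gate, which took cells with low to medium CD44, on the C57BL/6 background. Both genotypes carried *hCD2-Cre*, a transgene that drives Cre recombinase in lymphocytes, and the Rosa26 GFP reporter that Cre switches on. WT mice had intact *Tcf7* and *Lef1*, the genes of Tcf1 and Lef1, and dKO mice had floxed alleles of both (Tcf1-/-Lef1-/-), so that GFP marked the cells in which Cre had acted, since excision by this transgene was incomplete. The sort thus set the CD44 protein level in both genotypes, and *Cd44* is 1 of the 7 genes. The authors pooled 3 WT replicates and 2 dKO replicates before calling peaks, so each peak has 1 value per genotype. The variation among replicates is therefore unknown and no test between genotypes was made.

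S1pr1 is the receptor through which T cells sense sphingosine 1-phosphate and leave lymphoid organs, and Klf2 is a transcription factor that keeps *S1pr1* expressed in naïve T cells. *Itgal*, *Itga4* and *Itgae* encode the integrin alpha chains of LFA-1, of VLA-4 and alpha4beta7, and of CD103, while *Itgb7* encodes the beta chain that pairs with the alpha4 and alphaE chains. CD44 binds hyaluronan and rises when T cells are activated. Tcf1 and Lef1 are HMG-box factors that bind closely related DNA motifs. The paper describes them as redundant in setting up CD8+ T cell identity late in the thymus. By its account, *hCD2-Cre* deleted *Tcf7* and *Lef1* in T cells that had left the thymus.

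A ChrAcc site was a peak with at least 4-fold enrichment over the local background of its own pool, p under 1e-05 and q under 0.05. The 7 loci held 69 WT sites and 54 dKO sites, which merged into 75 union sites, of which 48 were shared, 21 were in the WT list only and 6 in the dKO list only. The WT list rests on 83923734 fragments and the dKO list on 62242963, so heights were compared by rank. Each site was given the percentile of its fold enrichment in its own list, where 100 is the highest site. As a second measure, the pileup, which counts fragments that span the summit, was divided by the fragments of its list, and the dKO over WT ratio is given with an exact 95% interval that covers counting error only.

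The cells were also checked against markers of T cells and of other cells of the spleen. All 3 T cell genes, *Cd3e*, *Cd8a* and *Cd8b1*, had a ChrAcc site within 1 kb of a TSS in both lists. None of *Ms4a1*, *Csf1r* and *Lyz2*, which mark B cells and myeloid cells, had one in either list.

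The site that stood farthest from equal rank lay in intron 1 of *Itgb7*, and its whole sequence is shown for that reason. Capitals mark the 208 bp that the peaks of both lists cover, at chr15:102061402-102061669 of mm9, on the plus strand, which is opposite to the transcript.

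Itgb7 intron 1: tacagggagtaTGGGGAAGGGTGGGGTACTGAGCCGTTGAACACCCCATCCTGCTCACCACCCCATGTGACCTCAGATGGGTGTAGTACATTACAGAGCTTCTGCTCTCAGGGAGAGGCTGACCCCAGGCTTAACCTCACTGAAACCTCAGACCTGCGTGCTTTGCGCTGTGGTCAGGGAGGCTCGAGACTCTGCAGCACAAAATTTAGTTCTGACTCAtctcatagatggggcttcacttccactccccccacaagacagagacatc

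The other site shown whole is the dKO-only site with the highest rank, in intron 1 of *Itgae* at chr11:72909106-72909313, on the plus strand, which is that of the transcript. Its capitals mark TGTGGTT, the Runx motif, which was searched for on both strands.

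Itgae intron 1: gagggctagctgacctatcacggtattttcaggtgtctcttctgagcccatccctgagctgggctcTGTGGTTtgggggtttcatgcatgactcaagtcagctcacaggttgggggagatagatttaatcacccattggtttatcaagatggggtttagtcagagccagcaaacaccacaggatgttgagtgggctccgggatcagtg

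The next sequences are the surroundings of the Foxo motif GTAAACA and of the Tcf/Lef motif ATCAAAG. The latter is shown because Tcf1 and Lef1 bind it and only 2 of the 75 union sites had this exact string within 100 bp of a summit, 1 downstream of *S1pr1* (chr3:115392531-115392597) and 1 downstream of *Cd44* (chr2:102644346-102644412). The paper scored its Tcf1 peaks with a position weight matrix, whereas other forms of the motif were not counted here. The Foxo motif is shown because Foxo1 is a known regulator of *Klf2* in naïve T cells and because 4 of the 12 union sites of the *S1pr1* locus held it, of which 3 are printed (chr3:115432196-115432262, chr3:115385790-115385856 and chr3:115376815-115376881). All are on the plus strand of mm9 with the motif in capitals, and TGTTTAC is GTAAACA read from the other strand.

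S1pr1 downstream 25.4 kb, Tcf/Lef: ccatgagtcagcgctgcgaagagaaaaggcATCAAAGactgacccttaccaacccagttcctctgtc
Cd44 downstream 97.4 kb, Tcf/Lef: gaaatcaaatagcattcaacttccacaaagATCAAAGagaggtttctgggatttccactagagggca
S1pr1 upstream 14.3 kb, Foxo: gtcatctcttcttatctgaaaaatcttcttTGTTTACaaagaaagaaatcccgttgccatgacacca
S1pr1 downstream 32.2 kb, Foxo: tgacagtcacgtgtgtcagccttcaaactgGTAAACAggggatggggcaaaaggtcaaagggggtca
S1pr1 downstream 41.2 kb, Foxo: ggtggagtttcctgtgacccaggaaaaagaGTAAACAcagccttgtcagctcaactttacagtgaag

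Distances in these names and below run from the TSS of the gene's main transcript along the direction of transcription. The comparison asks whether accessibility at genes of naïve T cell traffic differed between WT and dKO cells.

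At the study's criteria, the share of sites found in 1 list only was near that of the whole series, but it moved with the criteria. Of the 69 WT sites, 21 had no overlapping dKO site, or 30.4% (95% Wilson interval 20.8 to 42.1), against 27.6% of all WT sites. Of the 54 dKO sites, 6 had no WT counterpart, or 11.1% (5.19 to 22.2), against 14.4% of all dKO sites. Both intervals hold the value of the series and cover counting error only. With the 20000 peaks of highest −log10 p in each list the WT share was 17.02% at the loci and 19.7% over the series. With a minimum fold enrichment of 8, the WT share was 44.8% at the loci and 25.9% over the series, and the dKO share 27.3% (6 of 22 sites) and 14.6%, so that the dKO share then lay above that of the series and not below it.

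**Figure D1:**
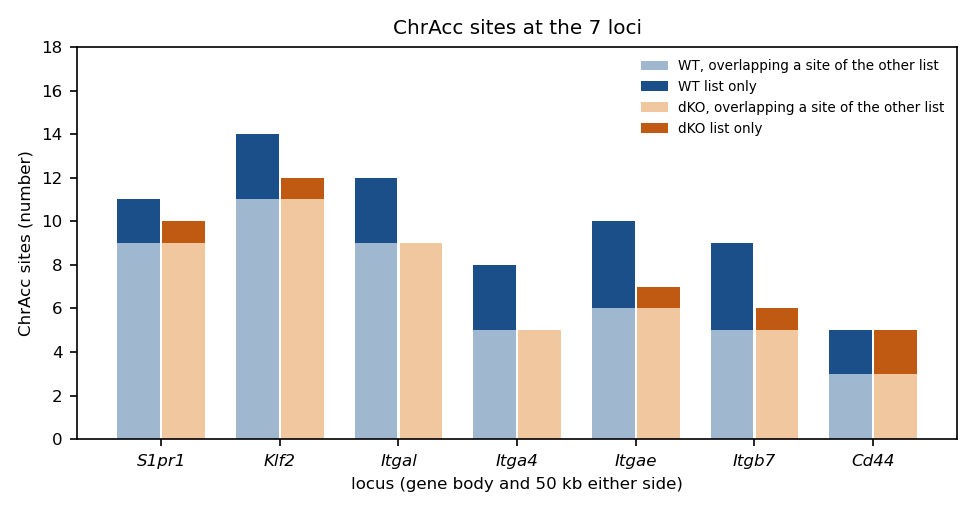
Number of ChrAcc sites (y axis) at each locus (x axis), in WT and dKO bars, with the sites that overlap a site of the other list in pale colour and those of 1 list in dark colour. *Klf2* had the most sites, 14 in WT and 12 in dKO, and *Cd44* was the only locus with as many sites in dKO as in WT, 5 each.

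In 6 of the 7 loci the WT list held more sites than the dKO list, and at *Cd44* both held 5. Among the windows of all 22367 protein-coding genes, built the same way, 36.3% had more WT sites and 12.5% more dKO sites. The other 11449 had equal numbers. The median was 10 WT and 7 dKO sites per locus, against 3 and 2 per window in the genome, so these shares compare windows of unlike content. The windows of 25 other homing and adhesion genes, described below, were closer, with medians of 9 and 8. Of those, 64% had more WT sites and 8% more dKO sites. The *Klf2* window had more WT sites than 98.7% of gene windows, and the *Cd44* window more than 66.8%. Windows differ in length and overlap, so they are no independent units.

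The loci differed from the series in where their sites lay. Sites within 1 kb of any TSS made up 29.0% of the WT sites at the loci and 41.3% of those in the series. Among those promoter sites 6 of 20 were in the WT list only, or 30% (14.5 to 51.9), against 16.5% of all WT promoter sites. Among the distal sites the share was 15 of 49, or 30.6%, against 35.3%. Of the 20 promoter sites, 7 lay at TSSs of the 7 genes and 13 at TSSs of neighbouring genes such as *Dctpp1*, *Tax1bp3* and *Mfsd5*.

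**Figure D2:**
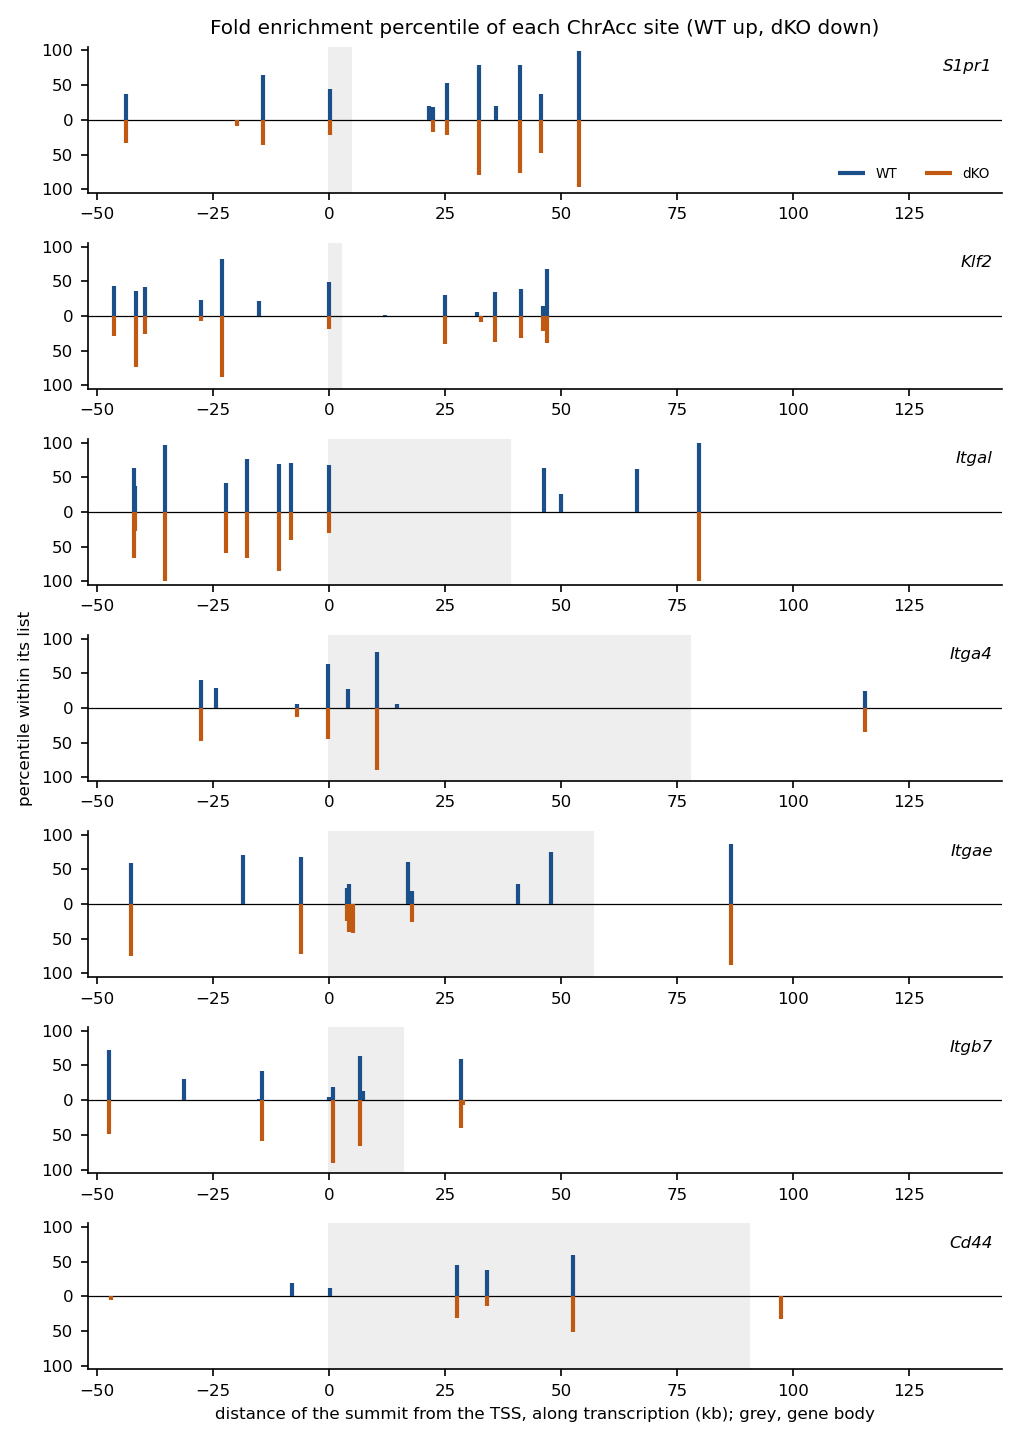
Each ChrAcc site of the 7 loci by its distance from the TSS in kb (x axis) and its fold enrichment percentile, upward in blue for WT and downward in orange for dKO (y axis), with the gene body in grey. The body of *Itgal* held no site in either list, and the intron 1 site of *Itgb7* has its tall bar on the dKO side.

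At shared sites, ranks moved in both directions. Of the 48, 24 ranked higher in WT (50%) and 24 in dKO, against 58.7% higher in WT among all 20533 shared sites, and the median rank difference (WT minus dKO) was −0.217 points, against 2.56. A difference of at least 20 points in favour of WT was found at 9 of the 48 (18.8%), against 13.7% of all shared sites. One in favour of dKO was found at 2 (4.17%), against 6.75%. This balance turned with the lists used, since the 20000 peaks of highest −log10 p in each list gave 7 in favour of WT and 8 in favour of dKO among 39 shared sites, and a minimum fold enrichment of 8 gave 1 and 2 among 16. The shares over all shared sites were not taken at these settings, so whether the series turned alike is unknown. Just under the limit were a site at the *Zfp740* TSS downstream of *Itgb7* (19.7 points) and one at the *Sephs2* TSS upstream of *Itgal* (−18.4), and just over it were the *S1pr1* promoter (23.2) and the *Mfsd5* promoter upstream of *Itgb7* (23.9). The median dKO over WT ratio of pileup per fragment was 0.954 at the loci and 0.912 over the series. The summits of a shared site lay 9 bp apart at the median, against 10 bp in the series.

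**Figure D3:**
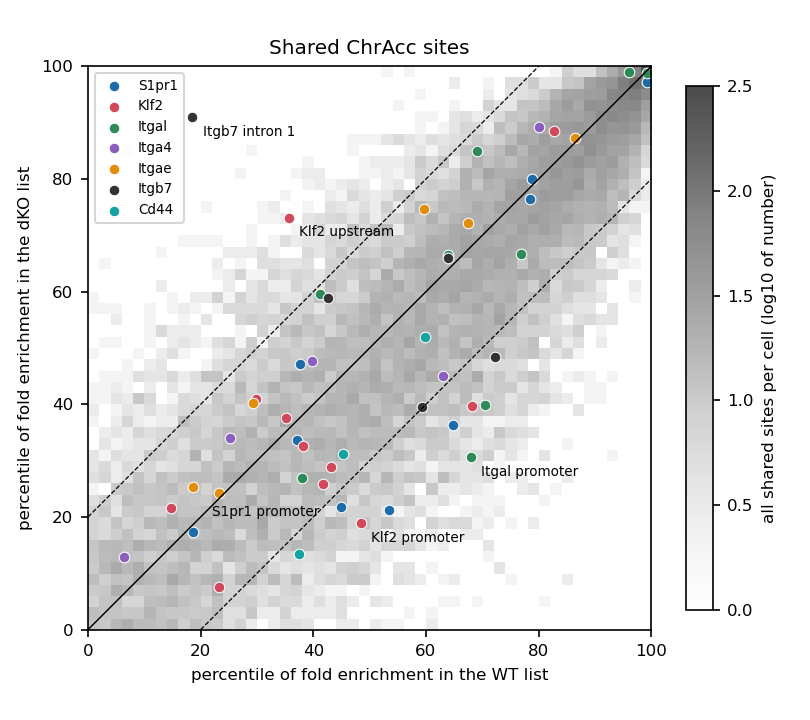
Percentile of fold enrichment in the WT list (x axis) and in the dKO list (y axis) of the 48 shared sites, coloured by locus, over all 20533 shared sites of the series in grey (log10 of their number per cell). The solid line is equal rank and the dashed lines are 20 points from it, and 9 coloured points lie beyond the lower line and 2 beyond the upper one.

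The *S1pr1* locus (chr3, gene body 115413351 to 115417973, minus strand) held 11 WT and 10 dKO sites, and no other protein-coding gene lay in its window, although the pseudogene *Gm9889* starts next to its TSS on the opposite strand. The promoter site, in exon 1 at 61 bp from the TSS, had 87 fragments and 7.89-fold enrichment in WT and 45 fragments and 5.88-fold in dKO. Its percentile was 45.0 in WT and 21.7 in dKO, and its pileup per fragment in dKO was 0.697 of that in WT (0.475 to 1.01). The promoter thus stood near the middle of the WT list and low in the dKO list, while the counting interval of its ratio reaches just past equality.

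The strongest *S1pr1* sites lay downstream of the gene and held their rank. The site 53.8 kb from the TSS had percentiles of 99.2 and 97.2 in WT and dKO, and those at 32.2 kb and 41.2 kb ranked at 78.9 and 78.5 in WT and at 80.02 and 76.4 in dKO. Both of the latter hold GTAAACA, as printed above. The site at 53.8 kb has, at its WT summit, a match to CCANNAGNNGGC, a short form of the CTCF motif that was looked for after this sequence had been seen and that 11.7% of all WT sites hold.

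A pair of other *S1pr1* sites stood lower in dKO. The upstream site at 14.3 kb, with GTAAACA 43 bp from its summit, had 54 fragments in WT and 31 in dKO and ranked at 64.8 and 36.3. The downstream site at 25.4 kb had 73 and 37 fragments and ranked at 53.4 and 21.2, a difference of 32.2 points that 4.82% of all shared sites reached in that direction. This second site is the only WT site of the 7 loci with ATCAAAG, which lies 40 bp from its summit. Its ratio of pileup per fragment was 0.683 (0.447 to 1.03).

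The *Klf2* locus (chr8, gene body 74842932 to 74845555, plus strand) held 14 WT and 12 dKO sites, none in the short gene body. At the promoter, 16 bp upstream of the TSS, the pileup was 81 fragments in WT and 35 in dKO, the fold enrichment 8.28 and 5.65, and the percentile 48.5 and 18.9. The ratio of pileup per fragment was 0.583 (0.380 to 0.876), so both bounds are below equality. The interval does hold 0.869, the median ratio of all shared promoter sites of the series.

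An upstream *Klf2* site went the other way. At 41.6 kb from the TSS, it had 66 fragments in WT and 70 in the shallower dKO pool, ranked at 35.7 and 73.2, and had a ratio of 1.43 (1.01 to 2.03). Of all shared sites, 1.198% moved as far towards dKO. The strongest *Klf2* site, 23.2 kb upstream, ranked at 82.7 and 88.6, and a site 47.0 kb downstream, inside the neighbouring endocytic adaptor gene *Eps15l1*, ranked at 68.2 and 39.8. Of the 11 shared sites of this locus, 6 ranked higher in WT and 5 in dKO.

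The integrin genes followed no common direction. *Itgal* (chr7, gene body 134439774 to 134478651, plus strand) had its sites outside the body, 12 in WT and 9 in dKO. The promoter site, 131 bp upstream of the TSS, had 61 fragments in WT and 27 in dKO and ranked at 68.0 and 30.6. The ratio of pileup per fragment was 0.597 (0.365 to 0.953), an interval that also holds the series promoter median of 0.869. Of all shared sites, 2.78% moved as far towards WT.

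A second *Itgal* site, 8.15 kb upstream, resembled the promoter, with 77 and 35 fragments, percentiles of 70.5 and 39.9 and a ratio of 0.613 (0.399 to 0.925). By contrast, the site 10.9 kb upstream had percentiles of 69.1 and 85.1 in WT and dKO. The 2 strongest sites of the window belong by position to other genes. They lie at the TSS of *Dctpp1*, a dCTP pyrophosphatase gene (96.1 and 99.1), and at that of the zinc finger gene *Zfp747* (99.2 and 98.9). The sequence around the summit of the *Zfp747* site has 1 near-identical copy elsewhere in the genome. The 3 WT-only sites of this window were all past the 3′ end of *Itgal*, and those at 46.2 kb and 66.3 kb ranked at 63.3 and 62.0 with 53 and 52 fragments.

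*Itga4* (chr2, gene body 79095583 to 79173280, plus strand) had 8 WT and 5 dKO sites, and no dKO-only site. The promoter site, 196 bp upstream of the TSS and with the Klf motif CCACACCC 66 bp from its summit, had 112 fragments in WT and 62 in dKO and ranked at 63.0 and 45.0. Its ratio was 0.746 (0.538 to 1.03), and its rank difference of 18.03 points was under the limit. The other 4 shared *Itga4* sites ranked higher in dKO, among them the strongest, in intron 2, which ranked at 80.1 and 89.3 with 92 and 85 fragments. A WT-only site in the same intron at 4141 bp from the TSS had a weak dKO peak of 3.83-fold beneath it, just short of the 4-fold criterion.

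**Figure D4:**
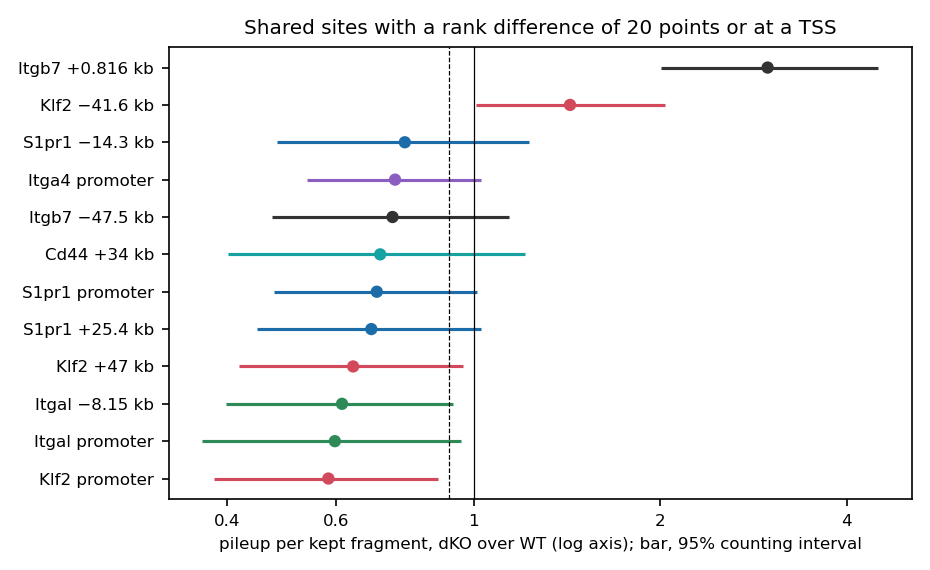
dKO over WT ratio of pileup per fragment (x axis, log scale), with exact 95% counting intervals as bars, coloured by locus. Shown are the shared sites with a rank difference of at least 20 points or within 1 kb of a TSS of the locus's own gene. The solid line is equality and the dashed line the median of all shared sites, 0.912, and the *Itgb7* intron 1 site lies farthest to the right at 2.98.

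At *Itgb7* (chr15, gene body 102046426 to 102062366, minus strand), 2 sites lay within 1 kb of the TSS. The site at the TSS, 9 bp upstream, was found only in WT, with 30 fragments and a low percentile of 4.44. The site printed above, 816 bp into the transcribed region in intron 1, had 38 fragments and 5.44-fold enrichment in WT and 84 fragments and 14.8-fold in dKO. Its percentile was 18.5 in WT against 91.0 in dKO, and its pileup per fragment in dKO was 2.98 times that in WT (2.01 to 4.50). Among all 20533 shared sites, 6, or 0.0292%, moved at least as far towards dKO, this site included. None of the 5 motifs, searched as exact strings, was found within 100 bp of its summit. The printed sequence does hold TGTGGTC, which differs from the Runx string TGTGGTT in its last letter, and such variants were not counted.

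The remaining *Itgb7* sites differed less. The intron 2 site ranked at 63.9 and 66.1, and the site at the *Rarg* TSS, 14.6 kb upstream, at 42.6 and 58.9. For the *Mfsd5* promoter the values were 72.2 and 48.3. Of the 9 WT sites of this locus 4 were in the WT list only, and their percentiles ran from 1.65 to 30.7.

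*Itgae* (chr11, gene body 72904085 to 72960948, plus strand) was the only 1 of the 7 genes without a ChrAcc site within 1 kb of its TSS in either list. CD103, its product, is carried by a part of naïve CD8+ T cells and by tissue-resident T cells. All 6 shared sites of its window ranked higher in dKO, by 0.741 to 15.1 points, none of which reached the limit of 20. Over the series, 8469 of the 20533 shared sites ranked higher in dKO. The largest and smallest differences were at TSSs of other genes, *1200014J11Rik* and *Tax1bp3*. There, the ratios of pileup per fragment were 1.001 (0.677 to 1.47) and 0.765 (0.546 to 1.06). At the remaining shared sites they ran from 1.108 to 1.397. All 6 counting intervals hold equality, and the *Tax1bp3* ratio lay below it, so the second measure does not show a uniform gain in dKO. The median ratio of all shared sites was 0.912. The dKO-only site printed above lay 5082 bp into intron 1, with 54 fragments, 7.58-fold enrichment and a percentile of 41.4, and no WT peak, weak or not, overlapped it. Next to it in the same intron, the shared sites at 3853 bp and 4176 bp had 51 and 55 fragments in WT and 46 and 57 in dKO.

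The 4 WT-only sites of the *Itgae* window included 3 at or above percentile 50. The site at 47.8 kb, with 66 fragments and a percentile of 74.6, lies in intron 26 of *Itgae* but 44 bp from the TSS of *Gsg2*, which encodes the mitotic kinase haspin. The site 18.6 kb upstream, inside *1200014J11Rik*, ranked at 70.1 with 58 fragments. A site in intron 2 ranked at 60.9 with 53 fragments, and the 201 bp around its summit have 211 near-identical copies elsewhere in the genome, so the mapping of its reads is uncertain. Of the 11 union sites of this window, 5 held the Runx motif TGTGGTT, against 1 or 2 sites at each other locus. These 5 include the intron 2 site whose mapping is uncertain. Over the series, 9.67% of WT sites and 10.6% of dKO sites held this motif.

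*Cd44* (chr2, gene body 102651298 to 102741822, minus strand) had 5 sites in each list, of which 3 were shared. All 3 lie in introns and ranked higher in WT, at 45.3 and 31.2 for the first in intron 1, at 37.5 and 13.4 for the second in intron 1, and at 59.9 and 52.0 in intron 5. The promoter site, in exon 1 at 78 bp from the TSS, was in the WT list only, with 29 fragments and a percentile of 12. The dKO-only sites were 1 upstream with 18 fragments and a percentile of 5.39, and the one with ATCAAAG, 6876 bp past the 3′ end of the gene, with 28 fragments and a percentile of 33.0.

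Side by side, the 7 genes had 5 shared sites within 1 kb of their TSSs, which did not go one way. At *S1pr1*, *Klf2*, *Itgal* and *Itga4* the shared site, each 16 to 196 bp from the TSS, ranked lower in dKO by 18.03 to 37.4 points, with ratios of 0.583 to 0.746. At *Itgb7* the shared site in intron 1 had a rank difference (WT minus dKO) of −72.4 points. Weak sites in the WT list alone lay at the TSSs of *Itgb7* and *Cd44*, and *Itgae* had no promoter site. With the promoters of neighbouring genes included, 7 of the 14 shared promoter sites of the loci ranked higher in WT and 7 in dKO. Over all 9772 shared promoter sites of the series, 63.3% ranked higher in WT, 12.8% by at least 20 points, and the median ratio of pileup per fragment was 0.869. The least covered dKO sites of the loci had 18 and 19 fragments, so weak WT sites such as those of *Itgb7* and *Cd44* are near what the shallower dKO pool could show, and depth and genotype cannot be told apart there.

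Sites found in 1 list were mostly weak. Of the 21 WT-only sites 5 were at or above percentile 50, or 23.8%, against 19.1% in the series, and all 5 are named above, in the windows of *Itgal* and *Itgae*. Of the 6 dKO-only sites none was, against 14.1%. A peak of the other list below the criteria lay under 2 of the 21 WT-only sites, the *Itga4* intron 2 site and a site 31.9 kb downstream of the *Klf2* TSS, where it reached 3.92-fold. Over the series, such a peak lay under 307 of the 7846 WT-only sites. For dKO-only sites the counts were 0 of 6 at the loci and 513 of 3519 over the series. The 8 deposited peaks of the loci that failed the criteria, 5 in WT and 3 in dKO, had enrichments of 3.16 to 3.92-fold.

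The motif counts of the loci stood on few sites. ATCAAAG was within 100 bp of the summit at 1 of 69 WT sites, or 1.45% (0.256 to 7.76), against 3.81% of all WT sites, and at 2 of 54 dKO sites (3.70%), against 2.42%. None of the 21 WT-only sites held it (0%, upper Wilson bound 15.5%), against 6.98% of WT-only sites in the series. GTAAACA was at 5 of 69 WT sites, or 7.25% (3.13 to 15.9), against 2.82%, and TGTGGTT at 12 of 69, or 17.4% (10.2 to 28.0), against 9.67%. The Klf motif CCACACCC was at 3 WT sites, and the Ets motif CCGGAAGT, held by 3.76% of all WT sites, at none. Only exact strings were counted, so sites with other forms of a motif are missed. A match of letters is a description of the sequence and not evidence of binding.

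The same measures were taken at 25 other genes of T cell homing and adhesion, among them the chemokine receptor gene *Ccr7* and the cytoskeletal regulator gene *Rac2*. In their windows, 51 of 220 WT sites (23.2%) and 14 of 186 dKO sites (7.53%) lacked a counterpart, against 27.6% and 14.4% over the series. More WT sites were found at 16 genes (64%), more dKO sites at 2 (8%) and equal numbers at 7. Among all gene windows, which hold fewer sites, 36.3% had more WT and 12.5% more dKO sites. Among their 166 shared sites 19 ranked at least 20 points higher in WT (11.4%) and 9 in dKO (5.42%), against 13.7% and 6.75% of all shared sites. The highest promoter site of *Itgb1*, the beta chain of VLA-4, was at percentile 29.95 in WT and 2.21 in dKO, and that of *Rac2* at 11.3 and 54.8. Those of *Ccr7* (70.2 and 64.4) and of *Itgb2*, the beta chain of LFA-1 (80.7 and 83.1), were close in both lists.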

How the data were processed

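DNase-seq libraries of WT (3) and dKO (2) naïve CD8+ T cells were aligned by the authors to mm9 with Bowtie2 2.2.5, pooled per genotype, and peaks were called on each pool with MACS2 2.1.1.20160309 on paired ends, with no control, at p = 1e-05. The file headers name each pool's BAM file and a sorted copy, and fragments read were 2 times those kept. In the deposited lists, pileup is a signal (fragments over the summit), fold enrichment is its ratio to the pool's own local background, and the deposited −log10 p and −log10 q come from the authors' MACS2 run. Gene models came from the gencode annotation of mm9, and sequences from that genome by pysam 0.24.0. Sites of both lists were shared with at least 1 bp of overlap. Copies of sites were sought with blastn 2.17.0 (at least 90% identity over 80% of the length). Named were sites within 1 kb of a TSS of the 7 genes, the 3 highest-ranked of each locus, 1-list sites at percentile 50 or above, shared sites differing by 20 points, and sites with ATCAAAG, 34 in all. Some sites outside this rule were named after their values were seen, such as the *Itgae* dKO-only site. Members, lists and motifs were chosen with earlier results of these data known. The overlap step was tested on simulated data. Computation used Python 3.11.15, pandas 2.3.3 and scipy 1.17.1. Alternatives were other criteria for a site, windows, overlaps, ranks and motif windows. Some markers and genes of the lists are not reported here by name.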

Additional observations from a re-analysis of the deposited data

How the results depend on the processing

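No paired analysis was possible because replicates were pooled by the authors before peak calling, and for the same reason no replicate could be left out. The median rank difference ran from −3.99 to 3.48 points over the alternatives and changed sign between them. With a minimum fold enrichment of 8, the share of WT sites without a dKO site was 44.8% (25.9% over the series), that of dKO sites without a WT site 27.3% (14.6%), and of 16 shared sites 1 ranked at least 20 points higher in WT and 2 in dKO. With the 20000 peaks of highest −log10 p per list, the WT share was 17.02% (19.7%) and the dKO share 18.75% (18.9%). Of 39 shared sites, 7 then ranked at least 20 points higher in WT and 8 in dKO. With 10 kb flanks, 5 shared sites ranked that much higher in WT, 1 in dKO, and 0 WT sites held ATCAAAG. With windows from 50 kb upstream to the transcript end 0 WT sites held it, and with every deposited peak 2 did. With ranks by pileup, 11 shared sites ranked at least 20 points higher in WT and 4 in dKO. For all these counts of shifted sites, the matching shares over the series were not taken. Shorter windows and stricter criteria hold fewer sites by construction, and the cause of the other shifts was not tested. Of the 11 sites with a difference of at least 20 points, the *S1pr1* site 14.3 kb upstream was at 19.0 with ranks by pileup and the *S1pr1* promoter at 15.6 with the 20000 peaks. With a minimum of 8-fold, 1 of these 11 sites was still shared, the *Mfsd5* promoter, so the others could not be evaluated there. With the 20000 peaks 9 were, without the *Itgb7* intron 1 site and the second *Cd44* intron 1 site, and the latter was also lost with q under 1e-10. Counts of a few sites per locus limit every share.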
